A study of Mus musculus with 3 samples.

Results

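TRAJ13 is 1 of the joining (J) segments of the mouse T cell receptor (TCR) α locus. The chains described here are the productive TCRα contigs assigned to TRAJ13, in cells of the expression matrix that carried exactly 1 productive α contig. There were 546 such cells among 6982 cells with 1 productive α chain, or 7.82% (exact Clopper-Pearson 95% interval, 7.20 to 8.47). TRAJ13 was chosen by its share of cells in these same populations, already known at that point, so those shares are given as a description. The assignment held against the germline segment: 545 of the 546 junctions matched at least 15 of the 26 TRAJ13 bases that lie within the third complementarity-determining region (CDR3), and the remaining junction matched 13.

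An α chain is built in CD4+CD8+ double-positive thymocytes by joining 1 of many V segments to 1 of many J segments, and bases can be trimmed from and added to the ends at the joint. The joint codes for CDR3α, the loop that lies over the peptide when the receptor meets peptide and MHC. Rearrangement can be repeated on the same allele, each round joining a V segment further from the J cluster to a J segment nearer the constant region, until the receptor is positively selected. Selected cells become CD4 or CD8 single-positive cells, and CD4 cells that meet stronger self ligands can become Foxp3+ regulatory T cells (Tregs) by way of progenitors that show either CD25, a chain of the IL-2 receptor, or a low level of the transcription factor Foxp3.

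All 6 sorted populations came from 1 pool of thymocytes of 8 female mice, 7 to 12 weeks old (strain given as C56Bl/6), all carrying the TCliβ transgene (a fixed TCRβ chain), a single functional TCRα allele (TCRα+/-) and a Foxp3-GFP reporter. Only cells stained for Vα2, which the TRAV14 genes encode, were sorted, and this restricts the V partner of TRAJ13 in advance. In stage order the populations were CD4+CD8+ thymocytes (DP, for double-positive), CD4+ thymocytes lacking CD25, Foxp3 and CD73 (CD4 SP, for single-positive), progenitors of Tregs that express CD25 (CD25+ TRP), progenitors with low Foxp3 (Foxp3lo TRP), Tregs lacking CD73 (CD73- Treg) and Tregs with it (CD73+ Treg). CD73 is an ecto-enzyme linked to Tregs that have matured in, or come back to, the thymus. DP cells were sorted from whole thymus and the others after depletion of CD8+ cells. Each population was tagged with its own hashtag antibody before 1 shared single-cell loading, so there was 1 sample per population, no replicate and no test. Intervals on shares are exact 95% intervals that cover counting error only, cells of 1 clone are not independent, and the mouse behind each cell is not recorded.

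The matrix held 12208 cells, with 1362200 to 9574318 unique molecular identifiers (UMIs) per population and median UMIs per cell between 1457 in DP and 3248 in CD25+ TRP. Cells with 1 productive α chain numbered 1266 of 3021 for DP, 1849 of 2436 for CD4 SP and 1783 of 2503 for CD25+ TRP. They numbered 804 of 1393 for Foxp3lo TRP, 223 of 454 for CD73- Treg and 1057 of 2401 for CD73+ Treg. The part of the cells left out thus differed between populations. TRAJ13 chains were supported by a median of 17 UMIs per contig and chains of all other TRAJ segments by a median of 18. The matrix rows carry no gene names, so the sort markers were not read and clusters are called by number.

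In the GRCm38 build TRAJ13 lies at chr14:54205741-54205797 on the plus strand, annotated as a TCR J gene, 14.7 kb before the constant-region gene TRAC. The germline sequences are shown first because the commonest TRAJ13 chain is their plain end-to-end join. They were read from GENCODE M21 transcripts, and the V end was the same in all TRAV14 copies used by these cells.
TRAV14 coding end from the CDR3 cysteine: tgtgcagcaagtg
TRAJ13 germline segment: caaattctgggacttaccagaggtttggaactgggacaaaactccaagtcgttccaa
The untrimmed join of the 2, up to the CDR3 phenylalanine, is 39 bases long, stays in frame and codes for 13 residues.

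Of the 95 different TRAJ13 CDR3α sequences, 8 were carried by at least 10 cells each and together by 394 of the 546 cells. All 8 begin with the residues CAA and end with SGTYQRF. The 5 with 13 residues are called here by the 3 residues in between (SAN, SSN, SPN, RAN and SAD), and the 3 shorter ones by their full sequence. The germline join codes for SAN. The commonest nucleotide sequence of each is given to show where it departs from the germline. For SAD it is 1 of 2 sequences with 5 cells each. Lower case marks bases in the longest unbroken match to the V end or to the J end, and capitals mark bases outside both matches.
SAN: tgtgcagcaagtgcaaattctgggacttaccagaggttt
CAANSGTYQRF: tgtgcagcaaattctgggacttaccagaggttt
SSN: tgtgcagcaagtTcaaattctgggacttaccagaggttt
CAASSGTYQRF: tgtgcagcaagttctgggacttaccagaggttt
SPN: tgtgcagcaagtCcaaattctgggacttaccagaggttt
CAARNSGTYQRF: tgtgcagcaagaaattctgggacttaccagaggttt
RAN: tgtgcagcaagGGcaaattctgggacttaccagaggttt
SAD: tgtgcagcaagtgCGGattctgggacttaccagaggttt
The 4 sequences without a capital differ from one another only in how much of each end is missing, and the other 4 carry 1 to 3 bases at the joint outside the germline matches.

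TRAJ13 had a middle rank among DP cells and was the most used of all J segments among CD4 SP cells. By population, the share of cells with a TRAJ13 chain was 2.84% for DP (36 cells, 2.00 to 3.92), 10.7% for CD4 SP (198, 9.34 to 12.2), 8.97% for CD25+ TRP (160, 7.69 to 10.4), 9.45% for Foxp3lo TRP (76, 7.52 to 11.7), 5.83% for CD73- Treg (13, 3.14 to 9.76) and 5.96% for CD73+ Treg (63, 4.61 to 7.56). DP stood lowest, although its interval overlapped that of CD73- Treg. CD4 SP and both progenitor populations overlapped one another, and both Treg populations lay between. By rank among the segments used, TRAJ13 was number 16 of 43 for DP, 1 for CD4 SP, 2 for CD25+ TRP behind TRAJ23, 1 for Foxp3lo TRP with TRAJ26 at the same share, 6 for CD73- Treg and 5 for CD73+ Treg, where TRAJ7 led.

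**Figure D1:**
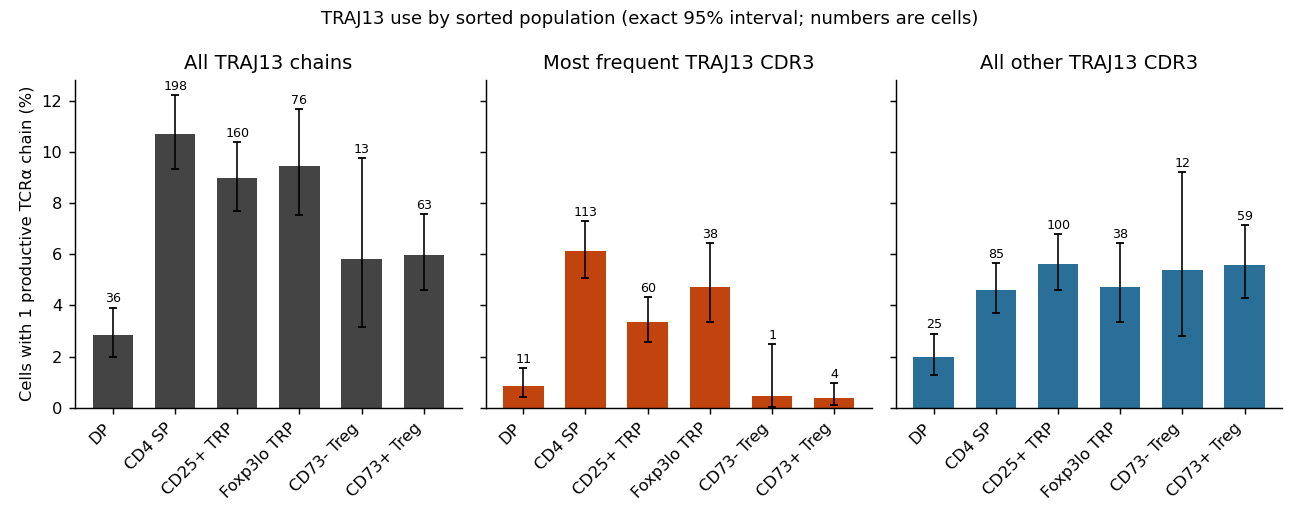
Share of cells with 1 productive TCRα chain (y axis, percent) in the 6 sorted populations (x axis, in stage order) that use TRAJ13 (left), its most frequent CDR3 (middle) or any other TRAJ13 CDR3 (right); lines are exact 95% intervals and numbers are cells. The most frequent CDR3 is at 0.378% in CD73+ Treg and 6.11% in CD4 SP, while the other TRAJ13 CDR3 lie between 4.60% and 5.61% in the 5 populations after DP.

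Between CD4 SP and DP, the TRAJ13 share was 3.77 times as high in CD4 SP, and 2.40 times with each CDR3 of a population counted once. This comparison moved many segments: 8 of 42 TRAJ segments (19.0%) had a higher share in CD4 SP with intervals that did not overlap, TRAJ13 among them, and 11 (26.2%) a lower one. Between CD25+ TRP and CD4 SP the TRAJ13 intervals overlapped, as they did between Foxp3lo TRP and CD4 SP. Segments with intervals apart made up 5.0% of 40 in either direction for CD25+ TRP against CD4 SP, and 2.5% higher and 5.0% lower in Foxp3lo TRP. The 13 TRAJ13 cells of CD73- Treg gave an interval that overlapped those of CD25+ TRP, Foxp3lo TRP and CD73+ Treg. Few segments were apart there at all: 2.86% of 35 were higher and 0.0% lower in CD73- Treg than in CD25+ TRP, 0.0% of 29 differed either way from Foxp3lo TRP, and 2.94% of 34 were higher and 2.94% lower in CD73+ Treg than in CD73- Treg. CD73+ Treg had 0.557 times the TRAJ13 share of CD4 SP, with intervals apart, where 6 of 41 segments (14.6%) were lower and 2 (4.88%) higher. That order rested on cells that share a chain. With each CDR3 of a population counted once, TRAJ13 held 4.54% in CD73+ Treg and 3.95% in CD4 SP, a ratio of 1.15, and with each rearrangement counted once the ratio was 0.859.

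Much of the difference between stages lay in a single CDR3. The cells with SAN, the germline-encoded one, numbered 11 from DP (0.869%, 0.435 to 1.55), 113 from CD4 SP (6.11%, 5.06 to 7.30), 60 from CD25+ TRP (3.37%, 2.58 to 4.31), 38 from Foxp3lo TRP (4.73%, 3.37 to 6.43), 1 from CD73- Treg (0.448%, 0.0114 to 2.47) and 4 from CD73+ Treg (0.378%, 0.103 to 0.966). As a share of the TRAJ13 cells it was 30.6% for DP, 57.1% for CD4 SP, 37.5% for CD25+ TRP, 50% for Foxp3lo TRP, 7.69% for CD73- Treg and 6.35% for CD73+ Treg. Of the 11 DP cells, 5 lay in clusters 1 and 2, which held 16 and 34 of the 1266 DP cells and 38.2% and 38.6% of CD4 SP cells. Without clusters that held under 5% of a population, a choice made after seeing the data, SAN was at 0.525% in DP and 5.80% in CD4 SP. It was thus most common in CD4 SP and both progenitor populations, and scarce in both Treg populations.

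With that CDR3 taken out of both the TRAJ13 cells and the totals, the TRAJ13 share was 1.99% for DP (1.29 to 2.93), 4.90% for CD4 SP (3.93 to 6.02), 5.80% for CD25+ TRP (4.75 to 7.01), 4.96% for Foxp3lo TRP (3.53 to 6.75), 5.41% for CD73- Treg (2.82 to 9.25) and 5.60% for CD73+ Treg (4.29 to 7.17). The 5 populations after DP then overlapped throughout, and CD73+ Treg was at 1.14 times the CD4 SP share instead of 0.557 times. CD4 SP remained above DP with intervals apart, at 2.46 times the share.

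The direct V-to-J join was carried by a larger share of TRAJ13 cells than of cells with other J segments. The 39-base germline join was found in 207 of the 227 cells with SAN, on 5 different TRAV14 copies. It made up 38.1% of TRAV14-TRAJ13 cells (207 of 543, 34.0 to 42.4). Among 36 TRAJ segments with at least 50 cells, the untrimmed TRAV14 join was in frame for 22. For the 21 of these other than TRAJ13 it was seen in 64 of 3886 cells in all, the highest share was 5.81% for TRAJ31, and 8 segments had no such cell. Over different rearrangements, where a direct join can count only once per V copy, it was 5 of 190 for TRAJ13 (2.63%, 0.860 to 6.03) and 25 of 2781 for the 21 others (0.899%, 0.583 to 1.32), with overlapping intervals. Because the same join made repeatedly on 1 V copy counts once, this count cannot show how often the direct join was made. Untrimmed joins were 30.3% of TRAJ13 cells and 2.46% of other in-frame TRAJ cells in DP, 51.5% and 1.72% in CD4 SP, 34.4% and 1.75% in CD25+ TRP, and 46.1% and 1.27% in Foxp3lo TRP. In CD73- Treg they were 1 of 13 TRAJ13 cells and 0 of 130 others, which allows up to 2.31%, and in CD73+ Treg 6.35% (1.76 to 15.5) and 1.08% (0.396 to 2.33). The intervals were apart in the first 4 populations and overlapped in both Treg populations.

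The SAN protein sequence was also reached by other joins. It was encoded by 8 nucleotide sequences, and by 17 different rearrangements when the V copy is counted. The second most common, in 8 cells, had 2 bases outside the germline matches and the same protein.
SAN second sequence: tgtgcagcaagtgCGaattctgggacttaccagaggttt

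The 7 other frequent CDR3 fell into those with the full 13 residues and those 1 or 2 residues shorter. Among the 13-residue CDR3, the cells with SSN were 3 from DP, 13 from CD4 SP, 9 from CD25+ TRP, 4 from Foxp3lo TRP, 0 from CD73- Treg and 1 from CD73+ Treg. Those with SPN were 3 from DP, 9 from CD4 SP, 9 from CD25+ TRP, 1 from Foxp3lo TRP, 0 from CD73- Treg and 1 from CD73+ Treg. Both had most of their cells in CD4 SP and CD25+ TRP, the largest populations here, and at most 1 cell among the Tregs. As a share of cells, SSN was at 0.703% in CD4 SP (0.375 to 1.20) and 0.0946% in CD73+ Treg (0.00240 to 0.526). SPN was at 0.487% (0.223 to 0.922) and 0.0946% (0.00240 to 0.526), so the intervals overlapped for both. SAD had 6 of its 10 cells in CD25+ TRP, 2 in CD4 SP, 1 each in DP and Foxp3lo TRP and none in the Treg populations. RAN was spread thinly over all populations, with 1 cell from DP, 1 from CD4 SP, 2 from CD25+ TRP, 3 from Foxp3lo TRP, 1 from CD73- Treg and 2 from CD73+ Treg. A count of 0 allows a share of up to 1.35% in CD73- Treg and 0.284% in CD73+ Treg.

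Of the shorter CDR3, the 2 with 11 residues had their largest counts in CD25+ TRP and CD73+ Treg. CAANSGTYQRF, with 11 residues, had 5 cells from DP (0.395%, 0.128 to 0.919), 6 from CD4 SP (0.325%, 0.119 to 0.705), 16 from CD25+ TRP (0.897%, 0.514 to 1.45), 7 from Foxp3lo TRP (0.871%, 0.351 to 1.79), 4 from CD73- Treg (1.79%, 0.491 to 4.53) and 13 from CD73+ Treg (1.23%, 0.656 to 2.09). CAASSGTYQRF, also with 11, had 0 cells from DP (up to 0.237% allowed), 4 from CD4 SP (0.216%, 0.0590 to 0.553), 10 from CD25+ TRP (0.561%, 0.269 to 1.03), 0 from Foxp3lo TRP (up to 0.373% allowed), 0 from CD73- Treg and 10 from CD73+ Treg (0.946%, 0.455 to 1.73). For both, the CD73+ Treg and CD25+ TRP shares were above the CD4 SP share, but the intervals overlapped. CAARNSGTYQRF, with 12 residues, had its largest counts in CD4 SP (7 cells) and CD25+ TRP (8 cells) instead. It had 1 cell from DP, 2 from Foxp3lo TRP, 0 from CD73- Treg and 1 from CD73+ Treg.

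**Figure D2:**
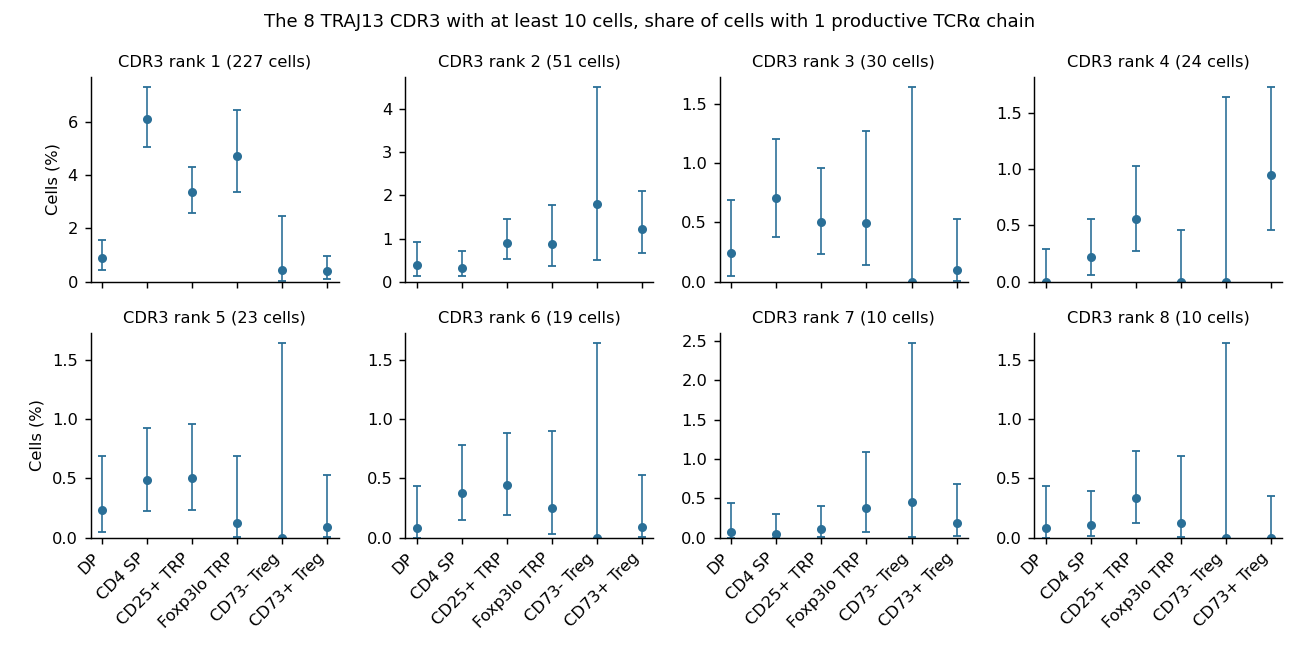
Share of cells with 1 productive TCRα chain (y axis, percent, own scale per panel) for the 8 TRAJ13 CDR3 with at least 10 cells, by population (x axis, in stage order); points are shares and lines exact 95% intervals. Rank 1 is SAN, highest in CD4 SP, and ranks 2 and 4 are the 11-residue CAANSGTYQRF and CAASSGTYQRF, whose CD73+ Treg points (1.23% and 0.946%) lie above their CD4 SP points (0.325% and 0.216%).

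Below these 8, a further 8 CDR3 had 5 to 9 cells each (48 cells) and 79 had fewer than 5 (104 cells, 59 of the sequences in a single cell). In the class of 5 to 9 cells, the 4 CDR3 with 11 residues held 0 cells from DP, 0 from CD4 SP, 10 from CD25+ TRP, 2 from Foxp3lo TRP, 3 from CD73- Treg and 8 from CD73+ Treg. The 4 with 13 residues held 0 cells from DP, 17 from CD4 SP, 2 from CD25+ TRP, 1 from Foxp3lo TRP, 0 from CD73- Treg and 5 from CD73+ Treg. The CDR3 outside the 8 frequent ones made up 11 of 36 TRAJ13 cells for DP, 43 of 198 for CD4 SP, 40 of 160 for CD25+ TRP, 20 of 76 for Foxp3lo TRP, 7 of 13 for CD73- Treg and 31 of 63 for CD73+ Treg. In all, 29 different CDR3 were seen in 63 CD73+ Treg cells with TRAJ13 and 37 in 198 CD4 SP cells, counts that also depend on the number of cells.

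Length separated the populations more sharply than any single short CDR3. CDR3 of 11 residues or fewer made up 16.7% of TRAJ13 cells for DP (6 of 36, 6.37 to 32.8), 7.07% for CD4 SP (14 of 198, 3.92 to 11.6), 25% for CD25+ TRP (40 of 160, 18.5 to 32.5), 17.1% for Foxp3lo TRP (13 of 76, 9.43 to 27.5), 53.8% for CD73- Treg (7 of 13, 25.1 to 80.8) and 61.9% for CD73+ Treg (39 of 63, 48.8 to 73.9). The CD73+ Treg interval lay above those of DP, CD4 SP and both progenitor populations, and the CD4 SP interval lay below those of CD25+ TRP and both Treg populations. Over different rearrangements the short share was 51.2% in CD73+ Treg (21 of 41, 35.1 to 67.1) and 13.9% in CD4 SP (11 of 79, 7.16 to 23.6), still apart, while the CD73+ Treg and CD25+ TRP (32.9%, 22.3 to 44.9) intervals overlapped. Over different CDR3 it was 41.4% in CD73+ Treg (12 of 29, 23.5 to 61.1) and 13.5% in CD4 SP (5 of 37, 4.54 to 28.8), with overlapping intervals. Chains of all other TRAJ segments showed a smaller spread: 5.53% of them were this short for DP, 3.82% for CD4 SP, 4.50% for CD25+ TRP, 5.22% for Foxp3lo TRP, 7.62% for CD73- Treg and 5.73% for CD73+ Treg.

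Since the most frequent CDR3 has 13 residues, the same classes were also expressed per cell of the population. Short TRAJ13 chains as a share of all cells with 1 α chain were 0.474% for DP (0.174 to 1.03), 0.757% for CD4 SP (0.415 to 1.27), 2.24% for CD25+ TRP (1.61 to 3.04), 1.62% for Foxp3lo TRP (0.864 to 2.75), 3.14% for CD73- Treg (1.27 to 6.36) and 3.69% for CD73+ Treg (2.64 to 5.01). TRAJ13 chains of 13 residues or more went the other way after CD4 SP, at 1.97% for DP (1.28 to 2.90), 9.46% for CD4 SP (8.17 to 10.9), 5.95% for CD25+ TRP (4.89 to 7.15), 7.46% for Foxp3lo TRP (5.74 to 9.50), 2.69% for CD73- Treg (0.994 to 5.76) and 1.89% for CD73+ Treg (1.16 to 2.91). Without SAN the chains of 13 residues or more were at 1.51% in CD73+ Treg (0.868 to 2.45) and 3.35% in CD4 SP (2.58 to 4.28), still with intervals apart. The near-level TRAJ13 share without the leading CDR3 was therefore made of more short and fewer long chains in CD73+ Treg than in CD4 SP. The short class was not 1 expanded chain: it held 21 different CDR3, 12 of them seen in CD73+ Treg, and 16 of the 39 short CD73+ Treg cells carried a CDR3 other than the 2 frequent ones.

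**Figure D3:**
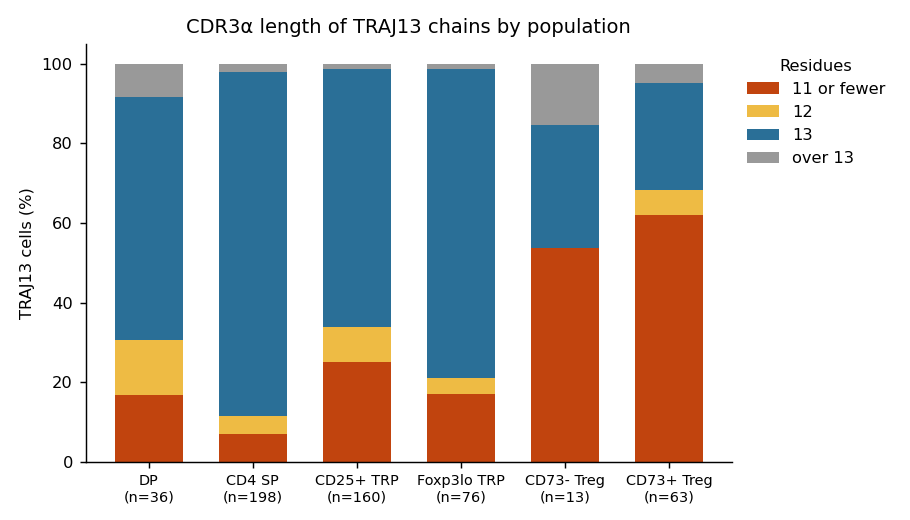
Length of the CDR3α of TRAJ13 chains (stacked shares of TRAJ13 cells, percent, y axis) in the 6 populations (x axis, in stage order, number of TRAJ13 cells in parentheses). Chains of 11 residues or fewer fill 61.9% of the CD73+ Treg bar and 7.07% of the CD4 SP bar, and 13 residues is the commonest length in the first 4 populations.

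Mean CDR3 length over TRAJ13 cells was 12.7 ± 1.06 residues for DP, 12.8 ± 0.588 for CD4 SP, 12.4 ± 0.895 for CD25+ TRP, 12.6 ± 0.780 for Foxp3lo TRP, 12.1 ± 1.26 for CD73- Treg and 11.7 ± 1.08 for CD73+ Treg (SD over cells, which are not replicates). Chains of other TRAJ segments averaged 13.4 to 13.6 residues in every population. TRAJ13 had the fourth shortest mean of 36 segments with at least 50 cells. In the order of means, its neighbours TRAJ21 and TRAJ33 averaged 12.51 and 12.54 residues, against 12.53 for TRAJ13, differences far below the SD over cells.

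At the joint itself, 285 of 546 TRAJ13 cells (52.2%) had no base outside the germline matches, but only 21 of 193 different rearrangements (10.9%) did. The untrimmed direct join made up 207 of these 285 cells and 5 of these 21 rearrangements, and the rest had lost bases at the joint. Joins without an outside base were thus carried by more cells each. The same join made repeatedly on 1 V copy counts once, so the 2 shares cannot show how often such joins were made. Over rearrangements, bases matching neither end averaged 2.67 ± 1.76 (SD over 193 rearrangements), and a match by chance makes such a count too low. Loss of 6 or more bases from the TRAJ13 end was seen in 1 of 36 TRAJ13 cells from DP, 2 of 198 from CD4 SP (1.01%), 11 of 160 from CD25+ TRP (6.88%), 4 of 76 from Foxp3lo TRP (5.26%), 3 of 13 from CD73- Treg and 15 of 63 from CD73+ Treg (23.8%). The deeper trimming in the Tregs and the shorter CDR3 described above are 2 readings of the same sequences.

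Many TRAJ13 CDR3 were encoded in more than 1 way. The 95 CDR3 came from 193 different combinations of V copy and nucleotide sequence, 2.03 per CDR3, against 1.47 per CDR3 for all other TRAJ segments, and 31 of the 95 (32.6%) had at least 2 combinations, against 23.0% for the others. These figures depend on the number of cells per CDR3, since a CDR3 seen in 1 cell can have only 1 combination. Such CDR3 were 59 of the 95 for TRAJ13 and 2308 of 3142 for the others. After SAN with 17, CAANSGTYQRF had 11 combinations, SSN and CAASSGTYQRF 9 each, SPN 8, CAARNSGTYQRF 7, and RAN and SAD 3 each. The same join made in several of the pooled mice counts once here, while a join assigned to both TRAV14D-2 and TRAV14N-2, whose V exons are the same, counts for each. A total of 31 of the 95 CDR3 were seen in at least 2 populations, against 674 of 3142 for the others, with the same dependence on cells per CDR3.

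TRAV14, the family that codes for Vα2, is present in several copies because this part of the locus is repeated, and the copy joined to TRAJ13 was seldom one near the J cluster. TRAV14-1, TRAV14-2 and TRAV14-3, the copies nearest to it, were together used by 6.04% of TRAJ13 cells (33 of 546, 4.20 to 8.38) and by 38.1% of cells with other TRAJ segments (2454 of 6436, 36.9 to 39.3). TRAV14-3, at 442 kb the closest copy, was used by 3 TRAJ13 cells. TRAV14D-3-DV8, 1127 kb away, was used by 40.1% of TRAJ13 cells (36 to 44.4) and 24.3% of the others (23.2 to 25.3), and TRAV14N-2 by 24.5% (21.0 to 28.4) and 7.94% (7.29 to 8.63). TRAV14N-3 was used by 15% of TRAJ13 cells (12.1 to 18.3) and 9.88% of the others (9.16 to 10.6), TRAV14N-1 by 7.88% (5.76 to 10.5) and 14.8% (13.9 to 15.7), and TRAV14D-2 by 5.86% (4.04 to 8.17) and 2.58% (2.21 to 3.00). The remaining 3 TRAJ13 cells used a V gene outside the family. The annotated transcripts of TRAV14D-2 and TRAV14N-2 have the same V exon, so the split between these copies is uncertain. The same holds for TRAV14N-1 and TRAV14D-1, to which no cell was assigned.

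**Figure D4:**
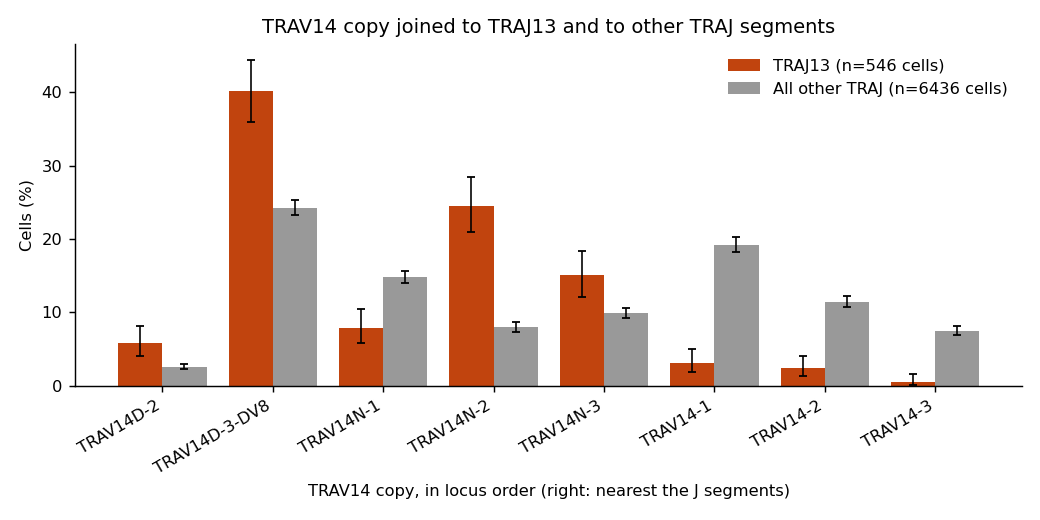
Share of cells (y axis, percent, exact 95% intervals) that joined each TRAV14 copy (x axis, in locus order, right nearest the J segments) to TRAJ13 (red, left bar of each pair, 546 cells) or to any other TRAJ segment (grey, 6436 cells). The 3 copies nearest the J segments total 6.04% for TRAJ13 and 38.1% for the others, and TRAV14D-3-DV8 stands at 40.1% and 24.3%.

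The low use of the near copies did not rest on the leading CDR3 alone. Without SAN it was 10.3% of TRAJ13 cells (7.23 to 14.2), and over different rearrangements it was 12.4% for TRAJ13 (8.13 to 17.9) and 38.3% for the others (36.9 to 39.7). By population, near copies were used by 5.56% of TRAJ13 cells and 42.3% of other cells for DP, by 2.53% and 36.2% for CD4 SP, by 8.75% and 37.4% for CD25+ TRP, by 3.95% and 40.7% for Foxp3lo TRP, by 15.4% and 31.0% for CD73- Treg, and by 11.1% and 37.0% for CD73+ Treg. The gap was present already in DP, and only in CD73- Treg, with 13 TRAJ13 cells, did the intervals overlap.

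The low use of near copies was shared with several J segments on the constant-region side. Across 36 TRAJ segments, the share of TRAV14 chains with a near copy had a median of 73.8% for the 11 segments from TRAJ58 to TRAJ40, 45.7% for the 16 from TRAJ39 to TRAJ15 and 8.18% for the 8 from TRAJ12 to TRAJ2. TRAJ13 was at 6.08%, beside its neighbour TRAJ12 at 7.94% (5.30 to 11.3) and TRAJ7 at 3.65% (1.84 to 6.44), with overlapping intervals. Other segments close by were higher, with intervals above that of TRAJ13 (4.22 to 8.43): TRAJ15 on its V side was at 28.6% (23.4 to 34.3) and TRAJ11 at 23.6% (13.2 to 37.0).

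**Figure D5:**
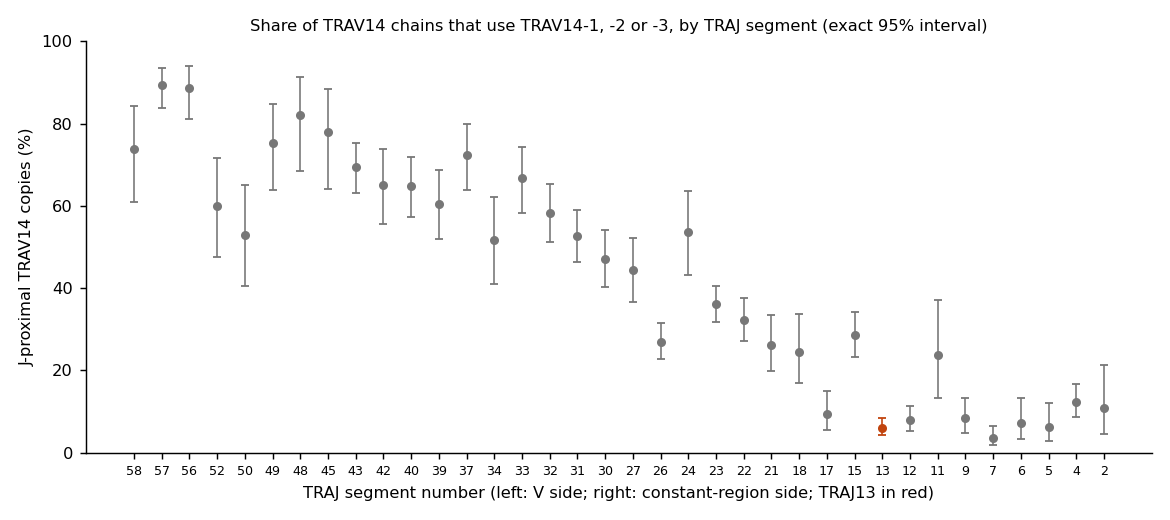
Share of TRAV14 chains that use TRAV14-1, TRAV14-2 or TRAV14-3 (y axis, percent, exact 95% intervals) for 36 TRAJ segments with at least 50 cells, ordered by segment number (x axis, V side on the left, constant-region side on the right). TRAJ13, in red at 6.08%, lies among the low values of the right end, where TRAJ12 is at 7.94% and TRAJ11 at 23.6%.

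The V copy and the CDR3 were linked. TRAV14D-3-DV8 was joined in 49.3% of the TRAJ13 cells with 13-residue CDR3 other than the leading one (74 of 150, 41.1 to 57.6) and in 8.40% of those with 11 residues or fewer (10 of 119, 4.10 to 14.9). TRAV14N-3 had the opposite place, in 8% of these 13-residue cells (4.20 to 13.6) and 42.0% of the short ones (50 of 119, 33.0 to 51.4). Over different rearrangements TRAV14D-3-DV8 kept the difference, at 47.7% (41 of 86, 36.8 to 58.7) and 9.62% (5 of 52, 3.20 to 21.0), whereas TRAV14N-3 was at 12.8% (6.56 to 21.7) and 25% (14 to 38.9), with overlapping intervals. Chains of other TRAJ segments had TRAV14D-3-DV8 in 18.8% of 13-residue cells and 17.8% of short cells, and TRAV14N-3 in 13.7% and 8.57%.

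Single CDR3 differed in their V copy, not always along the line of length. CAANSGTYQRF was joined to TRAV14N-3 in 31 of 51 cells, in 5 different nucleotide sequences, and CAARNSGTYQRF in 17 of 19 cells, also in 5. RAN and SAD each used TRAV14D-3-DV8 in 9 of 10 cells, whereas SPN, also with 13 residues, used TRAV14N-2 in 16 of 23 and TRAV14D-3-DV8 in 2. SAN used TRAV14D-3-DV8 in 122 cells, TRAV14N-2 in 78, TRAV14D-2 in 20, TRAV14N-1 in 5 and TRAV14N-3 in 2, and none of its 227 cells used a near copy. SSN was split too, with 14 of 30 cells on TRAV14D-3-DV8 and 12 on TRAV14N-2, and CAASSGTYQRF had 9 cells on TRAV14-2, 8 on TRAV14N-2 and 7 on TRAV14N-3.

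The V partner of the leading CDR3 also differed between populations. In Foxp3lo TRP 37 of its 38 cells used TRAV14D-3-DV8 (97.4%, 86.2 to 99.9). The share was 46.7% in CD25+ TRP (28 of 60, 33.7 to 60.0), 45.1% in CD4 SP (51 of 113, 35.8 to 54.8) and 18.2% in DP (2 of 11, 2.28 to 51.8), and TRAV14D-2 and TRAV14N-2 together held 32, 58 and 7 cells there. The Foxp3lo TRP interval lay above those of these 3 populations. The few Treg cells with SAN, 3 of 4 in CD73+ Treg and 1 of 1 in CD73- Treg on TRAV14D-3-DV8, gave intervals that overlapped it. The 38 Foxp3lo TRP cells lay in 4 clusters, with 22 in cluster 0. For the direct join alone, with 1 nucleotide sequence, the shares were 34 of 35 cells in Foxp3lo TRP, 26 of 55 in CD25+ TRP and 48 of 102 in CD4 SP. Among TRAJ13 cells without SAN, TRAV14D-3-DV8 was used by 44.7% in Foxp3lo TRP (28.6 to 61.7), 25% in CD25+ TRP (16.9 to 34.7), 34.1% in CD4 SP (24.2 to 45.2) and 32% in DP (15 to 53.5), with overlapping intervals. Among cells with other TRAJ segments it was used by 20.5% in Foxp3lo TRP (17.6 to 23.6), 28.3% in CD25+ TRP (26.1 to 30.5), 24.1% in CD4 SP (22.1 to 26.2) and 16.6% in DP (14.5 to 18.8), so that Foxp3lo TRP was not the highest there. Because the animals were pooled, cells of 1 mouse or 1 clone cannot be told apart from cells that made the same join separately.

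In CD4 SP the TRAJ13 chains were unevenly placed over the authors' expression clusters. Clusters were drawn from expression of the same cells, so these shares are a description. TRAJ13 was used by 19.7% of CD4 SP cells in cluster 0 (26 of 132, 13.3 to 27.5), 13.1% in cluster 10 (11 of 84, 6.72 to 22.2), 12.3% in cluster 2 (88 of 713, 10.0 to 15), 7.21% in cluster 1 (51 of 707, 5.42 to 9.38) and 3.03% in cluster 11 (3 of 99, 0.629 to 8.60). Clusters 0 and 2 each had intervals above those of clusters 1 and 11. In the 5 other populations the intervals of the clusters with at least 50 cells overlapped throughout. The shares ran from 0.860% to 3.27% in DP, 6.15% to 11.8% in Foxp3lo TRP, 5.81% to 9.26% in CD73- Treg and 1.92% to 9.35% in CD73+ Treg.

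In CD25+ TRP the total TRAJ13 share ran from 7.00% to 12.3% in the 8 clusters with at least 50 cells, and the CDR3 behind it differed. Clusters 1 and 2 held 16 and 15 cells with SAN among 27 and 30 TRAJ13 cells, and 1 and 3 cells with a short CDR3. Clusters 5 and 7 held 4 and 4 cells with SAN among 40 and 25 TRAJ13 cells, and 15 and 13 cells with a short CDR3. Per cell of the cluster, short TRAJ13 chains were 3.31% in cluster 5 (1.86 to 5.40) and 3.64% in cluster 7 (1.95 to 6.15), against 0.351% in cluster 1 (0.00888 to 1.94) and 1.01% in cluster 2 (0.209 to 2.92), and among these 4 only clusters 7 and 1 had intervals apart, narrowly. In CD73+ Treg cluster 3, the largest, 12 of 18 TRAJ13 cells had a short CDR3 and none had SAN.

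The J segments whose shares followed that of TRAJ13 most closely over the 6 populations were TRAJ32, TRAJ57 and TRAJ43, with Pearson correlations of 0.92, 0.81 and 0.80 among 29 segments used by at least 1% of cells. All points come from the same libraries and the correlations describe 6 values each. The share of cells using TRAJ32 was 1.42% for DP, 3.68% for CD4 SP, 3.59% for CD25+ TRP, 3.73% for Foxp3lo TRP, 2.24% for CD73- Treg and 1.42% for CD73+ Treg. TRAJ12, next to TRAJ13 in the locus, was number 4 with 0.68, and its share was 3.87% in DP, 6.17% in CD4 SP and 3.31% in CD73+ Treg. TRAJ15, the nearest of the 29 on the V side, was at -0.08. TRAJ7, further towards the constant region, was used by 1.97% of DP, 1.41% of CD4 SP and 13.3% of CD73+ Treg cells.

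Nonproductive α contigs, which make no receptor, gave few TRAJ13 joins. TRAJ13 was found in 4 of 323 nonproductive α contigs of the matrix cells (1.24%, 0.338 to 3.14), against 7.82% of the productive chains. The single DP contig, 1 of 82 (1.22%, 0.0309 to 6.61), left an interval that includes the 2.84% of the productive DP chains. DP gave 82 of the 323 nonproductive contigs and 1266 of the 6982 productive chains, so the pooled shares mix the populations differently. The mice carry a single functional α allele, and the origin of the nonproductive contigs was not tested. Their TRAJ13 share is therefore not taken as that of chains before selection. In these α-enriched libraries, a productive β chain with a V gene other than TRBV19 was read in 2 of the 546 TRAJ13 cells (0.366%, 0.0444 to 1.32). It was read in 93 of 6436 other cells (1.44%, 1.17 to 1.77), with overlapping intervals.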

How the data were processed

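Expression, hashtag and α-enriched TCR libraries share the same droplets (10x Genomics 5' kit), per the labels' protocols. Tools listed without a role in the submitters' processing notes are Cell Ranger 3.1.0 and Seurat 3.1.1, with GRCm38 (mm10) as the genome. The authors deposited a matrix of UMI counts for 12208 cells (used for totals per cell only, since its 14790 rows carry no gene names), cell metadata with hashtag class and cluster, and a contig table with UMI counts per contig. The deposited normalized matrix and the table of cells per CDR3 were not used. Metadata rows have no barcode: they were joined in matrix order, and the clonotype matched the contig table in 6982 of 6982 cells that carry one. A hashtag class is called Treg with nothing more, and was taken to be CD73- Treg because the other classes name the remaining 5 populations. Hashtag doublets and cell filters are not described in the sources used here, and no doublet caller was run.

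TRAJ13 cells were taken from cells with exactly 1 productive α contig. A further 330 cells with at least 2 such contigs and 4896 with none were left out. A rearrangement is a V gene, J gene and CDR3 nucleotide sequence. Junctions were split by the longest match to the germline V and J ends of GENCODE M21. Tested on simulated data, 2000 TRAJ13 joins with 2.48 added bases on average gave 2.09. Intervals are exact Clopper-Pearson 95% intervals, the share allowed at 0 is that of 3 cells, and J segments were compared in 7 pairs of populations over segments with at least 10 cells. CDR3 were named if carried by at least 10 cells, and clusters with at least 50 cells of a population were described. The 3 segments most like TRAJ13 were named from their correlation. Python 3.11.15, pandas 2.3.3, numpy 2.4.6, scipy 1.17.1 and matplotlib 3.10.9 were used. The TRAJ13 chains, lists and measures were chosen with earlier results of these data known.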

Additional observations from a re-analysis of the deposited data

Results flagged for a closer look

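TRAJ13 chains also appeared in cells outside those described. Of the 330 cells with at least 2 productive α chains, 52 carried a TRAJ13 chain (15.8%, 12.0 to 20.1), and 20 of their 55 TRAJ13 chains were the CDR3 called SAN. By population these were 1 of 42 cells in DP, 23 of 88 in CD4 SP (26.1%, 17.3 to 36.6), 11 of 79 in CD25+ TRP, 8 of 44 in Foxp3lo TRP, 1 of 11 in CD73- Treg and 8 of 66 in CD73+ Treg. Such a cell has more than 1 chain in which TRAJ13 can be found, so these shares are not on the scale of the shares above. Whether these barcodes hold 2 cells was not tested.

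Barcodes of the contig table that are not in the expression matrix held 7987 productive α contigs, of which 599 used TRAJ13 (7.50%, 6.93 to 8.10), and 200 of these were the CDR3 called SAN (33.4%, 29.6 to 37.3). These barcodes have no population.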

How the results depend on the processing

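Over 156 recomputed values, 135 stayed within the counting interval of the reported one (for means, within the SD, and for ratios, within 1.5 times). The other 21 came from counting repeated chains once, and 1 of them turned the order of 2 populations. For mean CDR3 length the SD is a wide band. In CD73+ Treg the mean went from 11.7 to 12.1 residues over different CDR3 and stayed within that band. With each CDR3 of a population counted once, the TRAJ13 share was 1.65% for DP, 3.95% for CD4 SP, 3.74% for CD25+ TRP, 5.03% for Foxp3lo TRP and 4.54% for CD73+ Treg, and without SAN it was 3.65% in CD25+ TRP and 3.85% in CD4 SP. With each rearrangement counted once it was 6.09% in CD4 SP, 5.35% in CD25+ TRP and 5.82% in Foxp3lo TRP. The CD73+ Treg to CD4 SP ratio of the TRAJ13 share, reported as 0.557, was 1.15 with each CDR3 counted once, the turned order, and 0.859 with each rearrangement counted once. The CD4 SP to DP ratio was 2.40 and 2.50. Counting choices added after seeing the data put CDR3 of 11 residues or fewer at 13.5% (each CDR3 once) and 13.9% (each rearrangement once) in CD4 SP, 32.9% in CD25+ TRP (each rearrangement once) and 41.4% in CD73+ Treg (each CDR3 once), and the direct join at 2.63% of TRAV14-TRAJ13 rearrangements. Near TRAV14 copies made up 16.4% of TRAJ13 rearrangements in CD25+ TRP and 6.33% in CD4 SP. No paired analysis was possible because each population is 1 sorted sample of 1 pool and the 3 GEO samples are library types. Leaving out a replicate was not possible for the same reason. With 13 TRAJ13 cells, CD73- Treg limits every comparison it enters.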
